A study of Mus musculus with 24 samples.

Results

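Hearts of wild-type mice treated with doxorubicin (DOX) were compared with hearts of mice given vehicle (V), both taken 72 h after treatment. Doxorubicin was given at 25 mg/kg, and the 6 libraries, 3 for each group, were chosen by their group and time in the table of 72 h, out of 24 labelled samples in the series. The remaining samples come from 16 h and from groups that received hesperitin, a citrus flavanone, at 10 mg/kg per day. The 6 libraries share genotype and tissue as labelled, and no batch term entered the main fit. Strain, sex, age and the vehicle's make-up are not given in the labels. The label does not say how many doses were given or whether each library is 1 animal, and p-values then describe only how these libraries vary, which may be technical. All 7703 genes that passed the filter on low counts, of 7723 in the table, were described. The doxorubicin libraries carry the numbers 1, 2 and 4, and number 4 is in no label. Values are listed below in the order 1, 2, 3 for V and 1, 2, 4 for DOX.

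Doxorubicin is an anthracycline that intercalates into DNA and traps topoisomerase II on it, and injury to the heart muscle limits its use. The adult heart makes most of its ATP by oxidising fatty acids, and its cardiomyocytes are packed with mitochondria and with contractile proteins of the adult isoforms. Stressed hearts are known to return to fetal isoforms, to lose mitochondrial and fatty acid genes and to turn on acute phase and matrix genes. The comparison asks which transcripts differ in the heart 3 days after the drug.

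The libraries held 16607839 to 20587603 counts each. In a principal component analysis of log2 CPM (counts scaled to a common library total) the leading component carried 77.4% of the variance and held the DOX libraries at -32.2 to -24.6 and the V libraries at 26.2 to 32.6. Mitochondrially encoded transcripts took 36.2 ± 1.05% of counts in V and 28.7 ± 1.54% in DOX (mean ± SD, n = 3). Nuclear copies of mitochondrial sequence, counted apart from these, took 13.6 to 15.5% in V and 12.1 to 12.3% in DOX. The scaling by trimmed mean (TMM) that underlies all CPM values here gave factors of 0.851 to 0.891 to V and 1.14 to 1.18 to DOX. With library totals alone in place of these factors, the median log2 fold change of all genes moved from 0.008 to 0.42, so a fall of less than about that size, or a list median that close to 0, has no direction free of the scaling. Lists whose median changes sign under that scaling have both values or counts beside them. Among the falls named below, those of Agtr1a, Col3a1, Dnm1l, Eif4g1, F3, Foxo3, Prkaca, Shmt2, Slc16a1, Stip1 and Txn2 kept their sign but not their call with library totals alone, at -0.33 (Foxo3) to -0.013 (F3).

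Transcripts past the threshold (an adjusted p below 0.05 in edgeR's quasi-likelihood test) numbered 4133 of 7703, or 53.7%. Of these, 2038 (26.5% of the tested genes) were higher and 2095 (27.2%) lower in DOX, and the share of higher calls was 49.3%, against 87.5% with library totals alone. The values of the 3 and 3 libraries did not overlap for 31.3% of genes in the higher and 32.2% in the lower direction. All counts of list members below stand against these shares. They cover only members in the table and tested, such as 13 of 30 interferon-stimulated genes and 9 of 24 chemokine and adhesion genes listed. All fold changes are log2 differences DOX minus V with their standard error (SE).

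**Figure D1:**
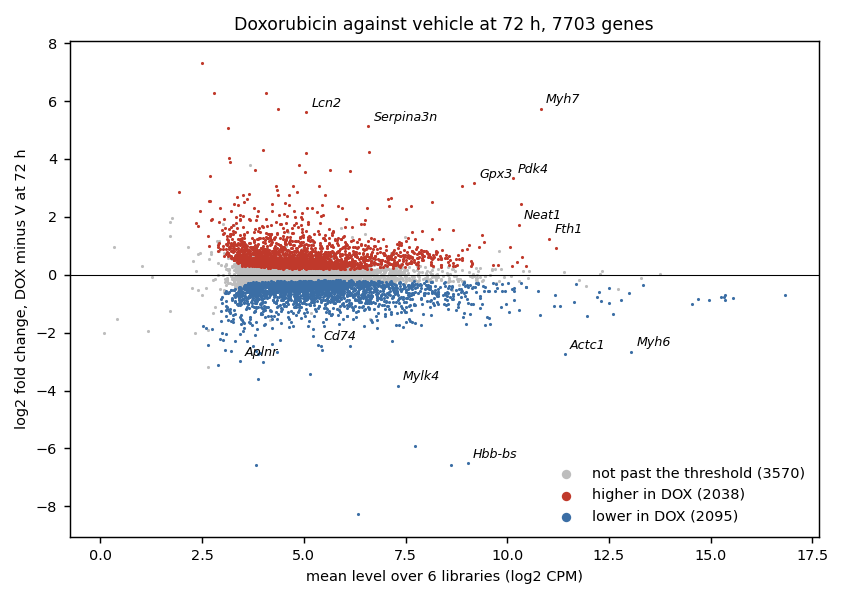
Mean level of each gene over the 6 libraries (x, log2 CPM) against its log2 fold change, DOX minus V at 72 h (y), with 1 point per gene. Of 7703 genes, 2038 are coloured as higher and 2095 as lower; Myh7, Lcn2 and Serpina3n lie far above 0 and Hbb-bs and Mylk4 far below.

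Markers of ventricular muscle and of other cell types were read in each library to check the labelled tissue. The 15 cardiomyocyte markers were all present and summed to 66057, 60157 and 57946 CPM in V and 24781, 30369 and 27078 CPM in DOX; 13 fell, none rose, and the median was -1.09 (with library totals alone 10 fell, 1 rose and the median was -0.67). Tnnt2, cardiac troponin T and 1 of the 2 that did not pass, was chosen after its values were seen and read 4772, 5161 and 4646 CPM in V and 5254, 5985 and 4750.3 CPM in DOX. A change in the number of cardiomyocytes and a change of transcripts within them cannot be told apart in whole tissue, and neither was tested.

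Endothelial markers moved the other way, with 11 of 20 higher and 2 lower (median 0.37). Cd36, the fatty acid transporter that both endothelium and muscle express, read 1620.2, 1546 and 1672 CPM in V and 3501, 2307 and 3441 CPM in DOX. The 20 markers summed to 3372, 3458 and 3421 CPM in V and 5967, 4590 and 6029 CPM in DOX. Cd36 thus made up much of this sum and of its rise. Sox17, an endothelial transcription factor, rose by 1.40 ± 0.22, whereas the phosphatase Ptprb and the adhesion protein Cdh5 changed by -0.32 and -0.27 and turned positive with library totals alone. The call of Cdh5 was lost without library DOX 1, DOX 2, V 1, V 2 or V 3 (adjusted p = 0.053 to 0.11). Of 14 tested fibroblast markers 5 rose and 2 fell. Mfap5 and Pdgfra rose by 1.56 and 0.68, and Col3a1, the type III collagen, fell from 63.8, 45.5 and 61.6 CPM to 33.8, 37.1 and 35.9 CPM. Mural cell markers gave 1 higher and 2 lower of 12 (median -0.13; with library totals alone 3 rose and 1 fell, median 0.30). Abcc9, an ATP-sensitive potassium channel subunit of muscle and pericytes, read 347, 266 and 267 CPM in V and 91.9, 97.4 and 103 CPM in DOX. Lymphocyte and mesothelial markers of the lists had no gene in the table.

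Blood and atrial markers differed between single libraries as well as between groups. The 6 red blood cell transcripts summed to 1457, 2306 and 3552 CPM in V and 33.5, 46.4 and 42.8 CPM in DOX, so that the groups lay far apart although the V libraries differed by more than 2-fold among themselves. Of 10 neutrophil markers listed, 3 were in the table, which holds a selection of genes made by the authors. These 3 summed to 1.98, 0.96 and 0.97 CPM in V and 94.9, 26.4 and 133 CPM in DOX, with library DOX 2 the lowest of the treated ones. Genes so low in V may have entered the table only through the DOX libraries, so their shared rise is not taken as support. Atrial markers summed to 37.8, 649.6 and 36.8 CPM in V and 54.4, 237 and 96.8 CPM in DOX: V 2 and DOX 2 were the highest of their groups, and none of the 6 markers passed the test. Nppa, the atrial natriuretic peptide, named after its values were seen, read 22.4, 404 and 16.5 CPM in V and 31.8, 68.6 and 52.7 CPM in DOX, with an adjusted p of 0.43. The single high V library sets the mean of that group. The adipocyte sum was 373, 489.6 and 488 CPM in V and 922, 475 and 1144 CPM in DOX, mostly from Fabp4, which endothelium also makes; Adipoq, the defining adipocyte marker, stayed at or below 3.25 CPM in all 6 libraries, and Fabp4 lost its call without library DOX 1, DOX 4, V 1, V 2 or V 3 (adjusted p = 0.09 to 0.14).

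**Figure D2:**
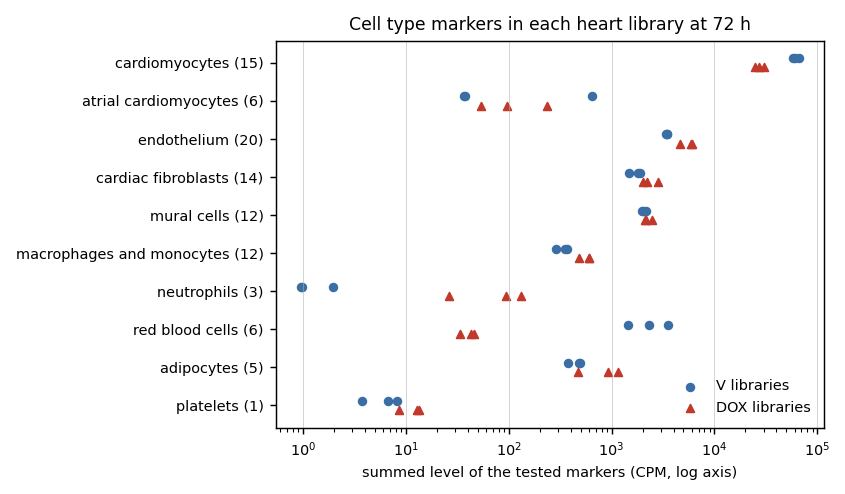
Summed level of the tested markers of 10 cell types (y; number of markers in parentheses) in each library (x, CPM, log axis), circles for V and triangles for DOX. Cardiomyocyte and red blood cell sums are lower in every DOX library, endothelial, macrophage and neutrophil sums higher in every one, and the atrial sum is highest in library V 2. Cd36, which muscle also expresses, makes up much of the endothelial sum, and Fabp4 counts in both the endothelial and the adipocyte sum.

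The largest rises were in secreted acute phase proteins, neutrophil granule genes and a fetal myosin. Myh7, the slow beta myosin heavy chain of the fetal mouse heart (chromosome 14, 54970684 to 54994626), read 58.8, 78.5 and 62.9 CPM in V and 3266, 3577 and 3779.7 CPM in DOX, a change of 5.73 ± 0.15 (adjusted p = 1.4e-07). No other gene of the table had a smaller p. Myh6 lies next to Myh7 and shares much of its sequence, so reads of the pair could be split by the authors' counting in ways not known here.

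Serpina3n, a protease inhibitor of the acute phase (chromosome 12, 104406729 to 104414329), read 4.03, 4.85 and 7.02 CPM in V and 229, 105 and 222 CPM in DOX. Lcn2, the iron-siderophore binding protein lipocalin 2, read 1.4, 1.02 and 1.43 CPM in V and 75.5, 21.5 and 94.8 CPM in DOX. Timp1, an inhibitor of matrix proteases, read 0.7, 0.255 and 0.457 CPM in V and 14.8, 8.03 and 26 CPM in DOX. These 3 genes changed by 5.12 ± 0.42, 5.62 ± 0.80 and 5.08 ± 0.57. For each the lowest treated library was DOX 2, above every V library as the choice of the largest rises required. Under limma voom the calls of Lcn2 and Timp1 were lost (adjusted p = 0.22 and 0.25), as were those of Retnlg, S100a8 and S100a9, described next (0.22, 0.40 and 0.38), all of them low in V. S100a8 and S100a9, the calprotectin subunits of neutrophils, reached 34.3, 10.5 and 53 CPM and 44, 11.9 and 62.1 CPM in DOX from at most 1.11 CPM in V. Retnlg, a resistin-like protein of neutrophils, read 0.292, 0.128 and 0.057 CPM in V and 16.6, 4.09 and 18.1 CPM in DOX. Chil3, a chitinase-like protein of monocytes and macrophages, read 0.117, 0.064 and 0 CPM in V and 10.4, 6.24 and 14.9 CPM in DOX; the V values stand for so few counts that no fold is given.

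Angptl4, Mt2, Mmp3 and Itih4 were among the 12 largest rises. Angptl4, a secreted inhibitor of lipoprotein lipase, read 4.43, 3.51 and 2.11 CPM in V and 54.2, 18.8 and 112 CPM in DOX, and Mt2, a zinc-binding metallothionein, read 8.75, 10.7 and 9.47 CPM in V and 201, 74.6 and 277 CPM in DOX. Both had a wide spread in DOX, with library 2 the lowest. Mmp3, the matrix protease stromelysin 1, was tight by contrast, at 0.934, 1.4 and 2.06 CPM in V and 24.9, 28.5 and 35 CPM in DOX (4.32 ± 0.24, adjusted p = 2.1e-05). Itih4, an acute phase plasma protein better known from liver, read 0.408, 1.34 and 1.26 CPM in V and 9.26, 10.7 and 29.2 CPM in DOX. Library DOX 4 was the highest for Angptl4 and Itih4, and without it their changes were 3.45 and 3.32 in place of 4.20 and 4.03. Angptl4 lost its call without library V 2 or V 3 (adjusted p = 0.058 to 0.065), and both lost it under limma voom (adjusted p = 0.14 and 0.24).

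After Myh7, the genes with the smallest p included these, besides H2-Aa and Hopx, which are given below. Apod, a secreted lipocalin, rose from 2.68, 4.08 and 4.96 CPM to 53.8, 50.4 and 57 CPM (3.78 ± 0.18). Zfp697, a zinc finger protein, rose from 12.3, 12.7 and 11.5 CPM to 70.5, 55.3 and 56.6 CPM, and Mmp14, a membrane-bound matrix protease, from 4.32, 4.47 and 4.68 CPM to 25.4, 20.2 and 20.7 CPM. Ifngr2, a subunit of the interferon gamma receptor, fell from 147, 152 and 149.5 CPM to 45.1, 50.5 and 54.7 CPM (-1.58 ± 0.09). Homer2, a scaffold protein, and Fitm1, a lipid droplet protein of muscle, changed by -1.43 and -1.32.

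**Figure D3:**
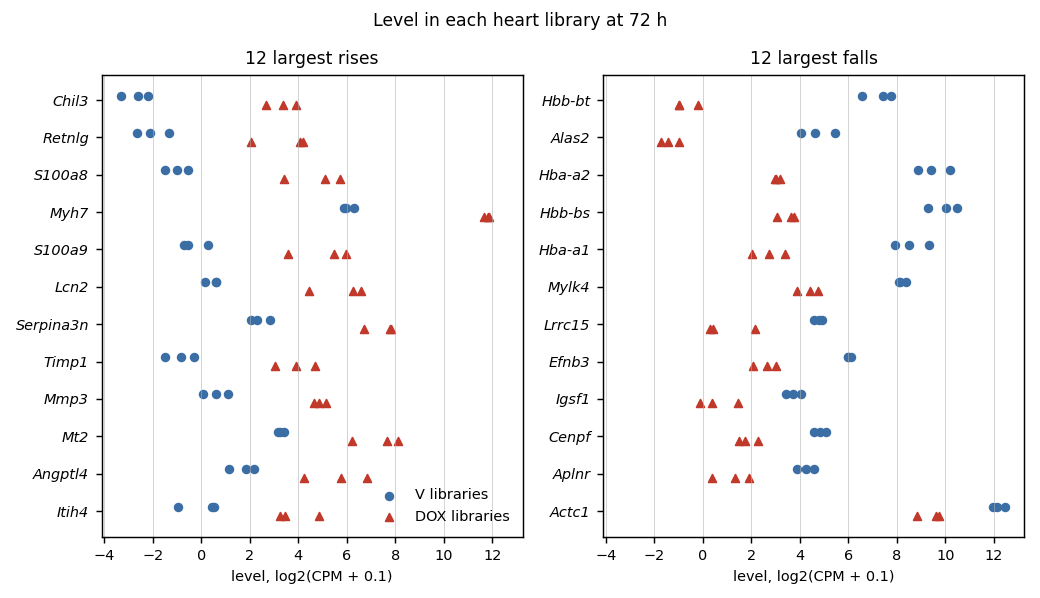
Level of the 12 genes with the largest rises (left) and the 12 with the largest falls (right) in each library at 72 h (x, log2 of CPM plus 0.1), circles for V and triangles for DOX. The genes were chosen to have no overlap of groups; the DOX points of Retnlg, S100a8, S100a9, Lcn2, Mt2 and Angptl4 spread widely, with library DOX 2 lowest, whereas those of Myh7 and Mmp3 lie close together.

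Besides the globin genes and Alas2, the first enzyme of heme synthesis in red cells, the largest falls included a muscle kinase, membrane proteins and a cell cycle gene. Mylk4, a myosin light chain kinase of heart muscle (chromosome 13, 32700834 to 32783954), fell from 333, 284 and 272 CPM in V to 14.8, 21 and 26.7 CPM in DOX (-3.83 ± 0.21, adjusted p = 2.9e-05). Efnb3, the membrane ligand ephrin B3, fell from 64, 62.6 and 69.7 CPM to 4.06, 7.93 and 6.14 CPM. Lrrc15, a leucine-rich repeat membrane protein, fell from 29.9, 27.7 and 24 CPM to 1.14, 4.4 and 1.25 CPM. Without DOX 2 the change of Lrrc15 was -4.50 in place of -3.60. For each of the 3 the lowest V library lay far above the highest DOX library, though lack of overlap was part of the choice.

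Aplnr, the receptor of the vasoactive peptide apelin, fell from 24.1, 18.8 and 14.8 CPM to 1.19, 2.4 and 3.69 CPM (-2.99 ± 0.36). Igsf1, an immunoglobulin family membrane protein, fell from 13, 10.8 and 16.6 CPM to 0.821, 2.66 and 1.2 CPM, and Cenpf, a kinetochore protein made by cells in late cell cycle, from 28.1, 23.8 and 33.5 CPM to 3.19, 4.76 and 2.69 CPM. Actc1, cardiac alpha actin, fell from 5656, 4503 and 4066 CPM to 459, 866 and 784 CPM. Without DOX 2 the change of Igsf1 was -3.74 in place of -3.12, and Alas2 lost its call under limma voom (adjusted p = 0.13).

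On the scale of CPM the largest gains after Myh7 were in abundant genes, with Cd36, given above, among them. Fth1, the iron-storing heavy chain of ferritin, read 1147, 1307 and 1286 CPM in V and 3206, 2834 and 2806 CPM in DOX. Pdk4, the kinase that blocks glucose oxidation at pyruvate dehydrogenase, read 216, 163 and 225 CPM in V and 2269, 1168 and 2673 CPM in DOX. Neat1, the long noncoding RNA that builds nuclear paraspeckles, read 676, 542 and 509 CPM in V and 2115, 2169 and 1423 CPM in DOX. Ankrd1, a stretch-induced titin-binding protein, read 406, 495 and 314 CPM in V and 2115, 1041 and 3395 CPM in DOX, the widest spread of these genes. Gpx3, a secreted glutathione peroxidase, rose by 3.16 ± 0.29 and Eef1a1, the elongation factor that brings aminoacyl-tRNA to the ribosome, by 0.96 ± 0.14. The largest losses were in mitochondrial transcripts, Myh6 (-2.66) and Atp2a2 (-1.34), the calcium pump of the sarcoplasmic reticulum.

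Genes of fatty acid oxidation were more often lower than higher under TMM scaling. Of 26 tested genes of fatty acid uptake and oxidation 4 rose and 10 fell (median -0.20; 13 rose, 2 fell and the median was 0.22 with library totals alone). Hadh, an enzyme of beta oxidation, fell from 516, 506 and 549 CPM to 276, 286 and 313 CPM, and Acsl1, which activates fatty acids, from 729, 608 and 645 CPM to 360.3, 363 and 379.8 CPM. Cpt1a, the liver-type carnitine palmitoyltransferase of the outer mitochondrial membrane, and Slc27a1, a fatty acid transporter, rose by 0.62 ± 0.076 and 0.69 ± 0.092. Without DOX 1 or V 3 the count of fatty acid genes that fell was 6.

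Breakdown of branched-chain amino acids fell more evenly: 18 of 20 tested genes were lower and none higher (median -0.49), and with library totals alone 9 were lower and 3 higher. Dbt, the E2 subunit of the branched-chain ketoacid dehydrogenase, fell from 73.3, 66.6 and 68.9 CPM to 26.1, 30.8 and 30.3 CPM (-1.26 ± 0.086). Bcat2, the mitochondrial transaminase of the first step, fell by 0.77 ± 0.083 and Mccc2, of leucine breakdown, fell by 0.90 ± 0.079. Hibch, of valine breakdown, fell from 71.7, 72.1 and 75.3 CPM to 41.4, 42.6 and 43.3 CPM. The fall thus covered the shared first steps and the separate branches.

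Of 6 genes of ketone body metabolism 2 fell and 1 rose (median -0.38; with library totals alone 3 rose and 1 fell, median 0.033). Oxct1, the enzyme that lets muscle burn ketone bodies, fell from 1237, 1018 and 1034 CPM to 339, 427 and 415 CPM (-1.48 ± 0.12), and Slc16a1, a lactate and ketone transporter, fell by 0.61 ± 0.08. Oxct1 was lower in all 3 treated libraries than in any V library.

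Of 20 lipid droplet genes 7 rose and 7 fell (median -0.036; with library totals alone 11 rose and 2 fell, median 0.38). Lipe, hormone-sensitive lipase, rose from 35.1, 30.8 and 33.8 CPM to 84.2, 63.8 and 93.7 CPM and Cidea, a droplet fusion protein, from 15.2, 13.2 and 15.2 CPM to 39.3, 34.7 and 33.6 CPM. Lpin1 and Dgat2, which make diacylglycerol and triglyceride, changed by -1.27 ± 0.11 and -1.05 ± 0.10. In the list of insulin signalling 8 of 17 genes fell and 2 rose (median -0.32, and 0.10 with library totals alone). Slc2a4, the insulin-dependent glucose transporter GLUT4, fell from 271, 246 and 235 CPM to 65.5, 94.4 and 66.3 CPM (-1.73 ± 0.15). Pik3r1, the regulatory subunit of PI3 kinase, fell by 1.06 ± 0.11, and Irs2 and Igf1r rose by 0.83 and 0.51. Irs2 lost its call without library DOX 1, DOX 2, V 1 or V 3 (adjusted p = 0.08 to 0.099).

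Regulators of mitochondrial and fatty acid genes were mostly lower. Of 18 genes of the PGC-1, ERR and PPAR group 13 fell and 1 rose (median -0.42; with library totals alone 6 fell and 5 rose). Ppara, the nuclear receptor that drives fatty acid genes, fell from 30.3, 25.9 and 28.1 CPM to 11.4, 10.2 and 10.03 CPM (-1.42 ± 0.10), and Esrrg, an estrogen-related receptor of oxidative muscle, from 37.5, 34.4 and 36 CPM to 17.4, 19.4 and 18.4 CPM. Sirt3, the mitochondrial deacetylase, fell by 0.99 ± 0.13, and Pprc1, a PGC-1 relative, rose by 0.51 ± 0.16; the call of Pprc1 was lost without library DOX 1, DOX 4, V 1, V 2 or V 3 (adjusted p = 0.051 to 0.088).

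Mitochondrial gene groups beyond the respiratory chain fell in different measure. Of 10 coenzyme Q genes 9 fell and none rose (median -0.59; 4 fell and 1 rose with library totals alone), led by Coq10a at 169, 162 and 155 CPM in V and 53.2, 79.1 and 62.9 CPM in DOX and by Pdss2, of the isoprenoid tail, at -1.29 ± 0.15. Of 11 mitochondrial aminoacyl-tRNA synthetases 9 fell and none rose (with library totals alone 2 fell), and of 20 cytosolic ones 2 fell and 3 rose (with library totals alone 16 rose and none fell). Yars2 and Aars2, mitochondrial synthetases for tyrosine and alanine, changed by -0.83 ± 0.12 and -0.74 ± 0.11. Among 77 mitochondrial ribosomal proteins 51 fell and 2 rose (median -0.41), but with library totals alone the count was 17 lower and 19 higher with a median of 0.003. Mrps9 and Mrpl3 changed by -0.86 ± 0.073 and -0.86 ± 0.081, and Mrpl33 and Mrpl24 rose by 0.47 ± 0.089 and 0.30 ± 0.075.

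Protein import and dynamics of mitochondria held genes of both directions. Pmpcb, a subunit of the presequence peptidase, fell from 126, 121 and 137 CPM to 63.9, 58.4 and 73.8 CPM, and Tomm20, the import receptor of the outer membrane, rose from 63.4, 75 and 70.8 CPM to 112, 95.4 and 113 CPM. In all, 16 of 32 import genes fell and 4 rose (median -0.29, 0.12 with library totals alone). Opa1, the fusion protein of the inner membrane, fell from 202, 163 and 184 CPM to 70.2, 76.4 and 70.4 CPM (-1.34 ± 0.10) and Mtfp1, a promoter of fission, from 74.1, 62.5 and 70.4 CPM to 19.7, 23.7 and 29.1 CPM. Bnip3, a mitophagy receptor, rose from 151, 154 and 177 CPM to 558, 484 and 405 CPM (1.59 ± 0.13). Dnm1l, the fission GTPase, fell by 0.61 ± 0.086 and Fis1, its outer membrane partner, rose by 0.42 ± 0.10. Of the creatine and adenylate kinase genes 6 of 10 fell and none rose (6 fell and 4 rose with library totals alone), with Ak4 at 44.9, 37.6 and 41.6 CPM in V and 17.8, 16.1 and 19.6 CPM in DOX and Ckmt2, the mitochondrial creatine kinase, at -0.85 ± 0.09.

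**Figure D4:**
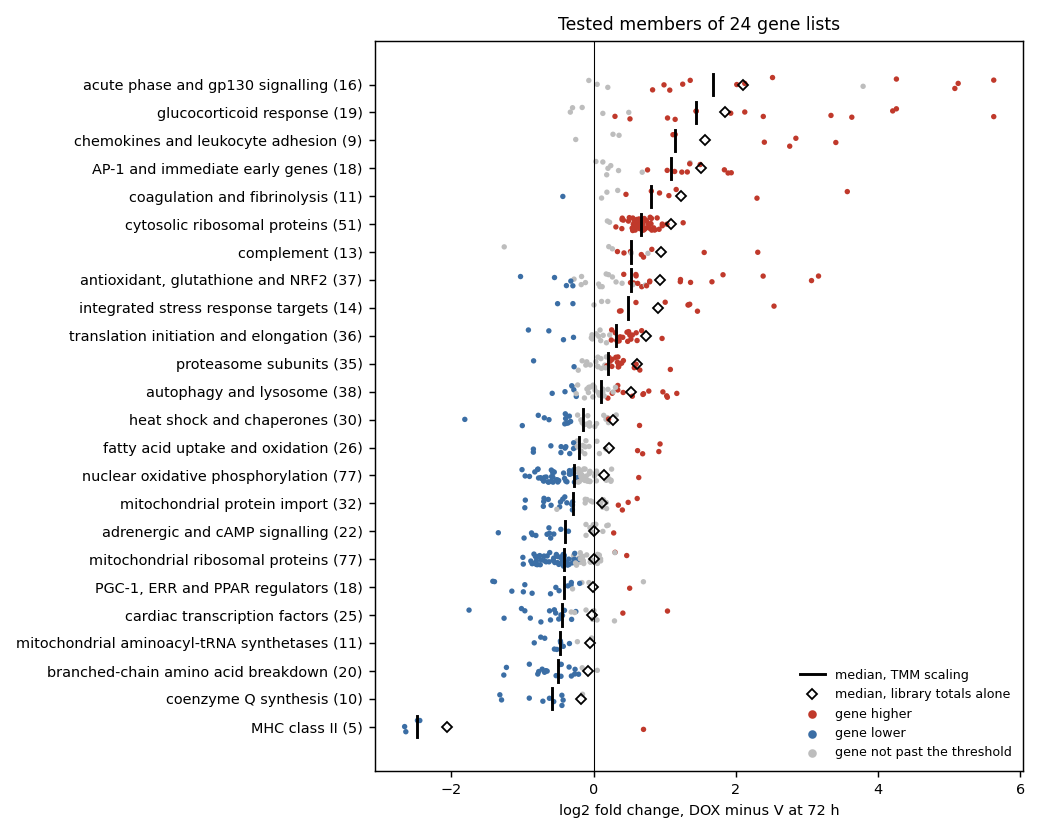
Log2 fold change, DOX minus V at 72 h (x), of the tested members of 24 gene lists (y; number tested in parentheses), 1 point per gene, red for higher, blue for lower and grey for not past the threshold. Vertical bars are medians under TMM scaling and open diamonds medians under library totals alone, which lie about 0.42 to the right, so the medians of fatty acid, oxidative phosphorylation, import, heat shock, adrenergic and mitochondrial ribosomal lists change sign.

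Transcription factors of the cardiac programme were lower in 16 and higher in 2 of 25 tested (median -0.44; 7 lower and 6 higher with library totals alone). Hopx, a homeodomain protein without DNA binding that acts with serum response factor, fell from 227, 254 and 236 CPM to 69.8, 77.1 and 66.4 CPM (-1.75 ± 0.091). Smyd1, a muscle histone methyltransferase, fell from 451, 414 and 401 CPM to 194, 223 and 209.9 CPM, and Tead1, which binds the M-CAT element, fell by 0.89 ± 0.10. Tbx3, a T-box factor of the conduction system, rose from 9.57, 6.0 and 7.59 CPM to 15.3, 12 and 20.4 CPM and Nr2f2, an atrial and venous factor, by 0.41 ± 0.15, a call lost without library DOX 1, DOX 4, V 1 or V 2 (adjusted p = 0.08 to 0.14). Of the atrial markers given above none passed.

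Adrenergic and cAMP signalling had 12 lower and 1 higher of 22 (median -0.41, 0.01 with library totals alone). Adra1a, the alpha-1A adrenergic receptor, fell from 21.4, 22.1 and 23.2 CPM to 7.89, 10.9 and 7.64 CPM (-1.34 ± 0.14). Akap6, the anchor of protein kinase A in heart, fell by 0.98 ± 0.11 and Prkaca, its catalytic subunit, fell by 0.62 ± 0.077. Hcn2, a pacemaker current channel chosen after its values were seen, fell from 18.8, 16.2 and 13.2 CPM to 2.56, 3.17 and 2.05 CPM. Of 15 vasoactive peptides and receptors 6 rose and 2 fell, but without V 3 the count that rose was 3. Among the receptors, Ednrb, the endothelin B receptor, rose from 13.7, 15.8 and 13.2 CPM to 39.6, 43.3 and 32.3 CPM, Npr1, the receptor of natriuretic peptides, rose by 0.72 ± 0.14, and Agtr1a, the angiotensin II receptor, fell by 0.46 ± 0.11.

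Clock genes are shown with their promoters because members of the same feedback loop moved in opposite directions. The circadian clock is a loop in which CLOCK and BMAL1 bind E-boxes and drive their own repressors, and the PAR factors DBP, TEF and HLF act on D-boxes. Of 17 tested genes 3 rose and 7 fell (median -0.15, 0.26 with library totals alone, under which 7 rose and 7 fell). Dbp fell from 93.9, 63.6 and 67.2 CPM to 12.5, 14.4 and 10.6 CPM (-2.58 ± 0.18), Hlf from 39.3, 41.3 and 36.5 CPM to 12.4, 15.6 and 9.48 CPM and Tef from 203, 203 and 196 CPM to 103, 122 and 87.3 CPM. The 3 PAR factors were thus all lower, with no overlap between groups. Clock itself rose from 35.8, 34.1 and 31.2 CPM to 50.4, 48.9 and 49.96 CPM (0.56 ± 0.076). The time of day at which hearts were taken is not given in the labels, so its part in these values was not tested.

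An E-box (CACGTG, a palindrome) was found in 20.0% of the 20 RefSeq promoter windows of 13 list genes that matched. It was in 7.2% of all 32851 windows and 10.1% of the 7887 windows of tested genes. A D-box (TTATGNAA on either strand) was in 10.0% of the list windows, against 3.4% and 2.0%. These list shares rest on only 4 and 2 windows with a match. Windows run from 250 bases before to 50 after the start of the gene, and a match describes letters only. The stretches below, from RefSeq on GRCm38.p6 and written 5′ to 3′ on the gene's strand, carry the E-box in capitals for Tef and Bhlhe41, which changed by -0.94 and -1.33, and for Per1, which changed by 0.51 with overlapping groups, and the D-box in capitals for Per3, which fell by 1.00. Bhlhe41, Per1 and Per3 were chosen after their values were seen. They lie at chr15:81802522-81802575 on the plus strand (Tef), chr6:145865544-145865597 on the minus strand (Bhlhe41), chr11:69098759-69098812 on the plus strand (Per1) and chr4:151044792-151044847 on the minus strand (Per3).
Tef: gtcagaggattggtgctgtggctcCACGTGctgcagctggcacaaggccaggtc
Bhlhe41: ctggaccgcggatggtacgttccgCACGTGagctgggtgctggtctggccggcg
Per1: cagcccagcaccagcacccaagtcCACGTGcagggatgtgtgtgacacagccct
Per3: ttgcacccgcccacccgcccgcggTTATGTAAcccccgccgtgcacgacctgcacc

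Stretch and hypertrophy genes rose in 9 and fell in 4 of 18 tested (median 0.72). Besides Myh7 and Ankrd1, Ccn2, a matricellular growth factor, rose from 31.3, 39.4 and 42.6 CPM to 279.7, 235 and 181 CPM (2.62 ± 0.18), and Tnfrsf12a, the receptor of the cytokine TWEAK, from 14.2, 14.8 and 9.25 CPM to 36.6, 44.5 and 63.8 CPM. Fhl2 and Xirp2, muscle proteins that the list also holds, fell from 1236, 1031 and 1235 CPM to 304, 415 and 352 CPM and from 562, 502 and 497 CPM to 193, 231 and 260.4 CPM. Nppb, the B-type natriuretic peptide that hearts release on stretch, read 49.8, 72.4 and 25.5 CPM in V and 57.3, 70.9 and 264 CPM in DOX and did not pass (adjusted p = 0.21); library DOX 4 was the highest, and without it the change was 0.38. The M-CAT element (CATTCC on either strand), the site of TEAD factors, was in 20.0% of 20 windows of the list against 14.7% of all windows and 12.2% of the windows of tested genes, which rests on 4 windows. The element was in 2 of 10 windows of members that rose and in 0 of 6 of those that fell. It is shown in capitals, as its reverse complement, for Myh7 and Ankrd1, the members past the threshold in which a match was found. They lie at chr14:54994798-54994851 on the minus strand (Myh7) and chr19:36119938-36119991 on the minus strand (Ankrd1).
Myh7: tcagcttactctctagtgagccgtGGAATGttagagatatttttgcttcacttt
Ankrd1: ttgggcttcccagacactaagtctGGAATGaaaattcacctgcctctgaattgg

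Matrix genes were higher in 15 and lower in 7 of 41 tested (median 0.32). The rises included proteases, their inhibitors and matricellular proteins, as given for Mmp3, Mmp14, Timp1 and Ccn2, and Thbs1, thrombospondin 1, at 3.73, 4.79 and 6.51 CPM in V and 39.3, 51.2 and 88.1 CPM in DOX (3.57 ± 0.39). Structural members were among the falls: Col3a1 as given above and Lama2, the laminin alpha 2 chain of muscle, fell by 0.91 ± 0.10. Dcn, the proteoglycan decorin, rose by 1.12 ± 0.18. Of 19 intercalated disc genes 9 fell and 5 rose (median -0.20, 0.21 with library totals alone), with Ctnna3, alpha T catenin, at -1.19 ± 0.12 and Fhl1, a stretch sensor, at 1.00 ± 0.10; the count of disc genes that rose was 2 to 3 without DOX 2, V 2 or V 3. Of 32 cytoskeletal and costamere genes 10 fell and 5 rose, but with library totals alone 17 rose and 7 fell; without V 2 the count that rose was 3. Dmd, dystrophin, fell from 129, 121 and 125 CPM to 74.1, 60.6 and 58.6 CPM and Synpo2, a Z-disc protein, fell by 1.12 ± 0.10, while Actn1, the nonmuscle alpha actinin, rose by 1.03 ± 0.19.

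The innate immune groups described next had more members higher than lower, in different measure. Acute phase and gp130 genes were higher in 12 of 16 tested, from 25 listed, and lower in none (median 1.69). Members so low in V, such as Lcn2 and Timp1, may have entered the table only through the DOX libraries. Their rise is therefore not taken as support, as for the neutrophil markers. Osmr, the oncostatin M receptor, rose from 13, 17.7 and 19.98 CPM to 72.2, 52.4 and 79.96 CPM, and Socs3, the feedback inhibitor of gp130 signalling chosen after its values were seen, from 2.74, 4.6 and 2.68 CPM to 17.8, 9.41 and 29.8 CPM. Of 9 chemokine and adhesion genes 6 rose and none fell; Ccl6 and Ccl9, myeloid chemokines, rose by 2.76 ± 0.34 and 2.40 ± 0.31, and Nfkbia, the inhibitor of NF-kB, rose from 20.01, 24.7 and 25.6 CPM to 52.4, 51.6 and 51.8 CPM. Complement had 8 of 13 higher and none lower. C4b, the complement protein C4, read 6.36, 9.45 and 17.7 CPM in V and 40.1, 60.8 and 65.7 CPM in DOX. Without DOX 1 or V 1 the count of complement genes that rose was 5. Coagulation and fibrinolysis genes rose in 7 and fell in 1 of 11, the fall being F3, tissue factor (-0.43 ± 0.14), whose call was lost without library DOX 1, DOX 4, V 1 or V 2 (adjusted p = 0.065 to 0.096). Most of the tested macrophage markers, from 18 listed, moved with these groups, and so did the 3 neutrophil markers, with the limit given above. Of 12 macrophage markers 9 rose and 1 fell, and their sum was 286, 351 and 367 CPM in V and 599, 479.6 and 601 CPM in DOX. The 12 include Chil3, near 0 in V, to which the limit on the neutrophil markers also applies. The part of macrophages or neutrophils in these rises was not tested.

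Antigen presentation split between its classes. All 4 class II genes tested fell: Cd74, the invariant chain, from 65, 68.1 and 73.3 CPM to 13.6, 9.87 and 14.5 CPM (-2.44 ± 0.13), H2-Aa from 32, 34.4 and 38.5 CPM to 5.93, 4.45 and 6.24 CPM, H2-Ab1 fell by 2.47 ± 0.16 and H2-Eb1 fell by 2.64 ± 0.17. Ctss, the protease that degrades the invariant chain, rose by 0.70 ± 0.11. Macrophage markers did not fall in the same way: the receptor Lyve1 and the factor XIII chain F13a1, which the coagulation list also holds, rose by 1.31 ± 0.13 and 1.16 ± 0.14, and Csf1r fell by 0.40 ± 0.088 and read 0.017 with library totals alone. Of 14 class I and immunoproteasome genes 8 rose and 3 fell. H2-T23 and H2-Q4, nonclassical class I genes of a family with near-identical members whose split is uncertain, rose by 0.86 ± 0.11 and 0.82 ± 0.12, and Psme1, the PA28 alpha activator, fell from 67.6, 71.4 and 72.7 CPM to 39, 41.2 and 42.1 CPM.

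Interferon genes rose in part. Of 13 interferon-stimulated genes 7 rose and 1 fell (median 0.42), and of 12 interferon-induced GTPases 2 rose and 1 fell (median 0.038). Ifit2 read 11.4, 12.8 and 13.1 CPM in V and 20.6, 20.1 and 16.5 CPM in DOX, and Oas2 rose by 1.04 ± 0.22.

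Proteasome subunits were more often higher than lower in DOX, whereas heat shock chaperones were more often lower under TMM scaling and more often higher with library totals alone. Of 35 proteasome subunits 18 rose and 2 fell (median 0.20), and without V 3 the count that rose was 11. Psmd4, the ubiquitin receptor of the regulatory particle, rose from 54.6, 57.9 and 51.1 CPM to 122, 115 and 109 CPM (1.08 ± 0.084), and Psme4, the PA200 activator, fell from 324, 275 and 314 CPM to 193, 162 and 154 CPM (-0.84 ± 0.11). Autophagy and lysosome genes were higher in 13 and lower in 5 of 38, the latter count ranging from 1 to 2 without DOX 1, DOX 2, V 1 or V 3. Ctsl, a lysosomal protease, rose from 109, 113 and 108 CPM to 233, 234 and 208 CPM, and Gabarapl1 and Map1lc3b, which build autophagosomes, rose by 1.17 ± 0.10 and 0.97 ± 0.10. Of 22 atrophy and FOXO genes, which share those members, 11 rose and 3 fell; Foxo3 itself was among the falls (-0.74 ± 0.13). Asb2, a muscle ubiquitin ligase adaptor, fell from 321, 301 and 295 CPM to 75.9, 124 and 99.6 CPM, whereas its relative Asb11 rose from 111, 108 and 101 CPM to 178, 207 and 157 CPM.

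Of 30 heat shock and chaperone genes 12 fell and 2 rose (median -0.15; with library totals alone 3 fell, 16 rose and the median was 0.27). Fkbp4, the HSP90 co-chaperone of steroid receptors, fell from 301, 252 and 259.6 CPM to 63, 86 and 83 CPM (-1.81 ± 0.13), and Stip1, which links HSP70 to HSP90, fell by 0.69 ± 0.12. Hspb1, the small heat shock protein HSP27, rose from 90.1, 85.4 and 74.2 CPM to 139.9, 99.6 and 152 CPM. A pair of inverted heat shock units (GAANNTTC, a palindrome) was in 38.2% of 34 promoter windows of 23 matched genes against 7.9% of all windows and 5.5% of the windows of tested genes, and in 9 of 18 windows of genes that fell. The stretches are shown because co-chaperones with such letters were among the falls; capitals mark the match in Fkbp4 (chr6:128438776-128438831 on the minus strand), Dnaja4 (chr9:54699483-54699538 on the plus strand; change -0.34 ± 0.073) and Hspe1 (chr1:55088040-55088095 on the plus strand; change -0.37 ± 0.089), the latter pair chosen after their values were seen. The falls of Dnaja4 and Hspe1 are smaller than the shift between the scalings.
Fkbp4: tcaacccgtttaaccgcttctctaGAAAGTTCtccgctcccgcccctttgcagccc
Dnaja4: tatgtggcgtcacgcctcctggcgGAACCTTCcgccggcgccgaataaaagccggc
Hspe1: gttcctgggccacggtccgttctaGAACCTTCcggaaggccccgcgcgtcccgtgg

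Endoplasmic reticulum folding genes rose in 9 and fell in 3 of 26. Xbp1, a transcription factor of the unfolded protein response, rose from 32.2, 34.9 and 40.6 CPM to 77.5, 58.4 and 95.1 CPM and Dnajc3, an inhibitor of the kinase PERK, by 0.70 ± 0.10; Herpud1, of the degradation pathway, fell by 0.36 ± 0.13 with overlapping groups and read 0.053 with library totals alone. Its call was lost without library DOX 1, DOX 4, V 1 or V 2 (adjusted p = 0.097 to 0.13). Targets of the integrated stress response rose in 9 and fell in 2 of 14. Slc3a2, the heavy chain of amino acid exchangers, rose from 17.6, 18.8 and 22.4 CPM to 56.1, 43.6 and 49 CPM, Ppp1r15a, which ends the response by dephosphorylating eIF2, from 17, 19.5 and 15.9 CPM to 52, 41.4 and 38.1 CPM, and Psat1, of serine synthesis, by 2.54 ± 0.34. Shmt2, the mitochondrial serine hydroxymethyltransferase, fell by 0.50 ± 0.081.

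Translation genes rose beyond the ribosomal proteins. Of 36 initiation and elongation factors 21 rose and 4 fell (median 0.32). Eif3e and Eif3k, subunits of initiation factor 3, rose by 0.68 ± 0.10 and 0.52 ± 0.074. The cap-binding complex went the other way: Eif4e fell from 129, 129.9 and 129 CPM to 60.9, 66.9 and 77.9 CPM (-0.92 ± 0.10) and Eif4g1, its scaffold, from 319, 287 and 296 CPM to 195, 176 and 214 CPM, while Eif4ebp1, the inhibitor that binds eIF4E, rose from 37.8, 50.7 and 39.3 CPM to 90.8, 80.5 and 85.1 CPM (1.01 ± 0.12). Of 51 cytosolic ribosomal proteins 49 rose and none fell, and none fell under library totals alone. Of 25 ribosome biogenesis genes 11 rose and 1 fell. Npm1, nucleophosmin, rose by 0.59 ± 0.091; the fall was Polr1a, the largest subunit of RNA polymerase I (-0.73 ± 0.11). Of 39 splicing factors 19 rose and 5 fell. Rbfox1 and Rbm20, the splicing regulators of heart muscle, were among the falls at 28, 23.2 and 24.1 CPM in V and 9.31, 10.9 and 8.04 CPM in DOX for Rbfox1 and -0.96 ± 0.15 for Rbm20.

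Antioxidant genes were higher in 18 and lower in 5 of 37 (median 0.52). Mgst1, a membrane-bound glutathione transferase, rose from 41.6, 45.6 and 43.4 CPM to 289, 187 and 205 CPM (2.38 ± 0.16), Nqo1, a quinone reductase, from 45.1, 46.7 and 55.9 CPM to 128, 113 and 104 CPM, and Gstm1, a glutathione transferase, by 1.22 ± 0.10. The falls included mitochondrial members: Sod2, the superoxide dismutase of the matrix, fell from 538, 475 and 489 CPM to 232, 243 and 263 CPM (-1.03 ± 0.09) and Txn2, the mitochondrial thioredoxin, fell by 0.55 ± 0.092, while Sod1, the cytosolic dismutase, rose from 145, 156 and 176 CPM to 241, 252 and 241 CPM. An antioxidant element (TGACNNNGC on either strand) was in 22.5% of 40 windows of 31 matched genes, against 12.4% of all windows and 15.0% of the windows of tested genes. It was in 5 of 17 windows of genes that rose and in none of 5 of genes that fell, from few windows. Capitals mark it, as its reverse complement, in Mgst1 (chr6:138140447-138140503 on the plus strand), Sod1 (chr16:90220682-90220738 on the plus strand) and Gclm (chr3:122245399-122245455 on the plus strand), the glutamate-cysteine ligase modifier, which rose by 0.79 ± 0.14. Sod1 and Gclm were chosen after their values were seen.
Mgst1: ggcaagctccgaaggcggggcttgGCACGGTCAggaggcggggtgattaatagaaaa
Sod1: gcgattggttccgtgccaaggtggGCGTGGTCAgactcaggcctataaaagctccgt
Gclm: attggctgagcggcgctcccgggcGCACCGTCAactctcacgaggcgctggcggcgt

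Among metal-binding proteins, Mt1, the sister of Mt2, rose from 57.2, 69.3 and 65.4 CPM to 378, 189 and 436 CPM. Of 17 genes of iron uptake, storage and export 5 rose and 4 fell (with library totals alone 12 rose and 2 fell). Slc25a28, the mitochondrial iron importer mitoferrin 2, rose from 18.8, 19 and 18.8 CPM to 40.01, 40.4 and 40.5 CPM (1.10 ± 0.075), and Cp, the ferroxidase ceruloplasmin, from 109, 109.7 and 84.5 CPM to 218, 219 and 229 CPM. Tfrc, the transferrin receptor, fell from 37.3, 30.2 and 25.5 CPM to 15.8, 18.5 and 14.7 CPM and Steap3, a ferrireductase, fell by 1.24 ± 0.10. The ferritin heavy chain was thus higher and the transferrin receptor lower. Of 17 iron-sulfur genes 9 fell and 1 rose (median -0.33, 0.085 with library totals alone); Iscu, the scaffold protein of iron-sulfur assembly, rose by 0.52 ± 0.094.

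Genes that respond to DNA damage moved in both directions. Cdkn1a, the p53-induced inhibitor of cyclin-dependent kinases, rose from 5.72, 6.13 and 10.4 CPM to 91.1, 87.4 and 98 CPM (3.63 ± 0.20) and Bax, a pore-forming cell death protein, from 10.3, 10.8 and 9.82 CPM to 22, 21.5 and 23.3 CPM. Ccng1, another p53 target, fell from 1042, 1048 and 1094 CPM to 371, 386 and 409 CPM (-1.45 ± 0.084). Of 16 p53 targets 6 rose and 2 fell, and of 19 topoisomerase and repair genes 5 rose and 4 fell (median -0.10; with library totals alone 11 rose and 2 fell, median 0.32; 3 rose without DOX 1, V 1 or V 3). Ung, which removes uracil from DNA, fell from 15.2, 14 and 12.3 CPM to 2.37, 3.68 and 4.09 CPM and Parp1, the sensor of strand breaks, fell by 0.79 ± 0.089. Bcl2l1, the survival protein BCL-XL, rose from 23.5, 25.8 and 34 CPM to 68.6, 57.4 and 63.9 CPM. Ccnd1 and Ccnd2, which are D-type cyclins, changed by -0.94 ± 0.11 and -1.44 ± 0.15. Their relative Ccnd3 was higher in DOX, a call lost without library DOX 1, V 1, V 2 or V 3 (adjusted p = 0.071 to 0.091). Of 18 immediate early genes 10 rose and none fell, among them Klf4, Maff and Klf6 at 1.04, 1.89 and 0.76. The glucocorticoid list had 14 of 19 higher and none lower; it shares Lcn2, Mt2 and Cebpd with the acute phase list and Cdkn1a with the p53 list, Nfkbia with the chemokine list and Dusp1 with the immediate early list, and so is no separate evidence for them. Its own members included Sult1a1, a sulfotransferase, at 24.2, 33.5 and 24.6 CPM in V and 109.8, 114 and 88.7 CPM in DOX. Cyp1b1, an aryl hydrocarbon receptor target, rose from 5.54, 7.08 and 11 CPM to 45.1, 30.5 and 23.8 CPM.

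Direction also varied with transcript length. Among genes split into 4 equal classes by their longest annotated transcript, from shortest to longest, 32.2%, 28.2%, 25.8% and 19.4% were higher and 25.5%, 26.8%, 27.4% and 29.3% were lower in DOX. Shorter transcripts, which include those of ribosomal proteins, were thus more often higher. RNA quality of each library is not given, apart from the minimum in the labels, and its part in this was not tested.

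The change at 72 h was set against that of the DOX and V hearts at 16 h, 3 libraries each, in a joint fit of 12 libraries over the 7407 genes of both tables. The change differed between times for 2640 genes (35.6%): in 1244 (16.8%) the later change was the higher one and in 1396 (18.8%) the lower one. The 16 h samples are different libraries in a separate table, so a difference of handling between the times cannot be told apart from time, although each time has its own vehicle group. Nppb had the largest positive difference, 7.39 ± 1.09, its change being -5.97 ± 0.89 at 16 h (adjusted p = 0.00063) and 1.41 ± 0.81 at 72 h, which did not pass. Ankrd1 changed by -1.63 ± 0.51 at 16 h and 2.43 ± 0.47 at 72 h, and Tnfrsf12a by -1.60 ± 0.27 and 1.92 ± 0.26, so both turned from lower to higher. In the stretch list 12 of 18 genes had a higher change at 72 h and 1 a lower one. The ribosomal proteins were similar, with 49 of 51 higher at 72 h.

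The interferon groups and the p53 targets had more members with a lower than with a higher change at 72 h. Of 30 interferon-stimulated genes and 15 interferon-induced GTPases listed, 13 and 12 were in both tables. All of these were higher in DOX and past the threshold at 16 h (24% of all genes were higher in DOX at that time). Of them, 11 and 10 had a lower change at 72 h. Tgtp2, a T cell-specific GTPase with near-identical relatives whose counts may be split, changed by 2.15 ± 0.44 at 16 h and -0.15 ± 0.25 at 72 h. Of 16 p53 targets 13 rose at 16 h and 9 had a lower change at 72 h; Ccng1 turned from 0.33 ± 0.062 to -1.45 ± 0.084. Psme4 turned from 0.85 ± 0.10 to -0.84 ± 0.11, and Steap3 read 0.11 ± 0.092 and -1.24 ± 0.10 (difference -1.34 ± 0.13, adjusted p = 3.1e-05). Ky, a muscle protease of the Z-disc, and Mfap3l, a membrane glycoprotein, turned from 0.67 ± 0.24 and 0.48 ± 0.11 to -2.60 ± 0.31 and -2.06 ± 0.13. In the later change 15 of 35 proteasome subunits were higher and 10 of 20 genes of branched-chain amino acids lower than at 16 h. None of the 6 red blood cell transcripts passed at 16 h, with Hbb-bs at -0.58 ± 0.35, and 5 of 6 had a lower change at 72 h; the globin pairs Hba-a1 and Hba-a2, and Hbb-bs and Hbb-bt, are near copies whose reads cannot be parted with certainty.

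**Figure D5:**
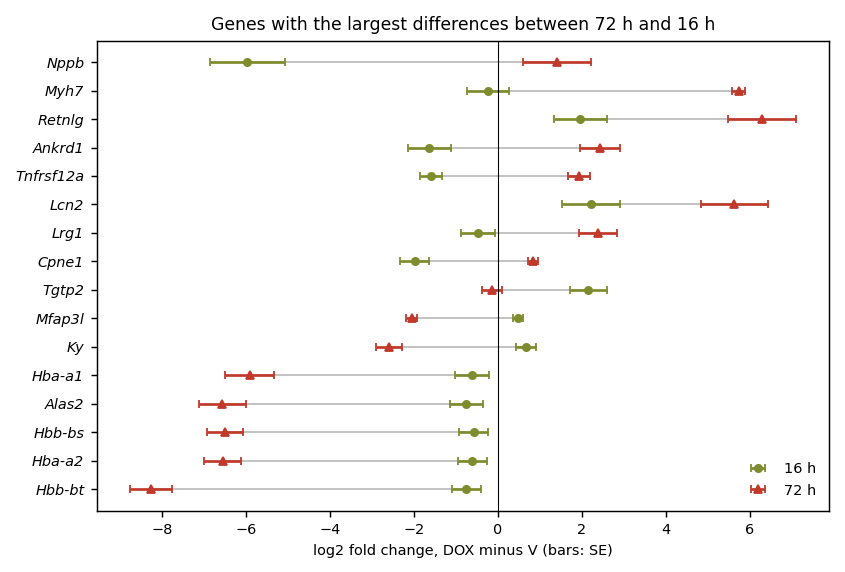
Log2 fold change, DOX minus V (x), at 16 h (circles) and 72 h (triangles) of the 16 genes with the largest differences between times (y); bars are SE. Nppb, Ankrd1, Tnfrsf12a and Cpne1 lie below 0 at 16 h and above it at 72 h, Ky and Mfap3l the reverse, and the globin genes and Alas2 are far below 0 at 72 h alone; with library totals alone Tgtp2 at 72 h lies above 0.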

How the data were processed

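Heart RNA was poly(A)-selected and sequenced, per the labels' protocols. The authors deposited expected counts per gene, 1 table for each time; RSEM, DESeq2 and the builds GRCm38 and mm10 are in the submitters' processing notes. Versions, annotation and strandedness were not given in the sources used here. At 72 h the file held 7723 genes and at 16 h 10393, so the authors had deposited a selection of genes whose rule is not stated. Columns were matched to samples by name; DOX 4 was taken as a replicate of the 72 h DOX group, and 6 columns of the 72 h table were not used. Antisense and overlapping genes, and near-identical copies, cannot be told apart.

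Expected counts were rounded and tested with edgeR 4.0.16 in R 4.3.3 (quasi-likelihood, TMM factors, filterByExpr). The 72 h fit left 4 residual degrees of freedom and the joint fit of both times 8. Benjamini-Hochberg adjustment covered every gene tested, and a gene was called below 0.05. All p-values given are two-sided and adjusted. CPM values use the TMM factors. Scripts were tested on simulated data. Alternatives were RLE factors, factors without mitochondrial genes, other filters, DESeq2 1.42.0, limma 3.58.1 (voom), a replicate block, leaving out each library, and 2 scalings added after seeing the data. Named genes were the 12 largest rises and falls without overlap of groups whose mean log2 CPM reached 1, the 10 smallest p, the 8 largest gains and losses in CPM, up to 4 members of each list by p with up to 2 of the rarer direction, and the 8 largest differences each way between times; other genes are said to be chosen later. A few genes the rule names are not reported here. Members and lists were chosen with earlier results of these data known. Coordinates are of GRCm38 (GENCODE M21), to which all but 23 genes of the table were matched.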

Additional observations from a re-analysis of the deposited data

Results flagged for a closer look

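The change between DOX and V differed between 72 h and 16 h for 2640 genes by the test of the difference in edgeR's joint fit, and 16 genes with the largest differences are listed here because that test was past the threshold for each. Differences are log2 fold changes at 72 h minus those at 16 h. On the positive side stood the stretch and muscle genes Nppb at 7.394, Myh7 at 5.98, Ankrd1 at 4.077 and Tnfrsf12a at 3.532, of which Myh7 was not past the threshold at 16 h (-0.24 ± 0.49, adjusted p = 0.71). The acute phase and neutrophil genes Retnlg, Lcn2 and Lrg1 differed by 4.327, 3.419 and 2.869. The difference of Lcn2 lost its call under limma voom (adjusted p = 0.32) and without DOX 1 or any V library of 72 h, DOX 2 or DOX 3 of 16 h or any V library of 16 h (0.052 to 0.12). That of Retnlg lost it under limma voom (0.27), with all mapped libraries (0.11), and without any V library of 72 h or V 3 of 16 h (0.052 to 0.077). Cpne1, a calcium-dependent membrane-binding protein, differed by 2.835. Its level read 9.34, 9.13 and 7.82 CPM in V and 16.4, 15.1 and 15.5 CPM in DOX at 72 h.

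On the negative side stood the red blood cell genes Hbb-bt at -7.496, Hba-a2 at -5.935, Hbb-bs at -5.907, Alas2 at -5.794 and Hba-a1 at -5.284. The muscle gene Ky differed by -3.267, Mfap3l by -2.525 and the GTPase Tgtp2 by -2.288. Ky read 18.6, 13.3 and 11.8 CPM in V and 1.55, 3.38 and 2.3 CPM in DOX at 72 h, and Mfap3l read 18, 16.4 and 17.9 CPM in V and 3.92, 4.09 and 4.54 CPM in DOX, so both were lower in every treated library at that time. The groups had 3 libraries each, too few for a test of single libraries that stand apart.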

How the results depend on the processing

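The 4133 calls at 72 h numbered 3818 to 4147 under the other factors, filters, tests and the replicate block that were planned, and 3397 to 4022 when each library was left out in turn (1610 to 1963 higher, 1787 to 2059 lower). Library totals alone, added after seeing the data, gave 5602 calls, with 4903 higher and 699 lower, and by construction drops the composition factors; totals of nuclear genes alone, also added, gave 4506. For the difference between times, library totals alone gave 2252 higher and 676 lower, and leaving out each library gave 2204 to 2748 calls. Of the genes named, 14 turned positive with library totals alone: Ptprb 0.096, Cdh5 0.142, Kcnj8 0.043, Csf1r 0.017, Psmb2 0.143, Lamp1 0.173, Canx 0.111, Herpud1 0.053, Slc7a1 0.126, Aars 0.102, Dars 0.228, Bcl2l13 0.049, Insig2 0.098 and Tgtp2 0.275. Tgtp2, not past the threshold at 72 h, ranged from -0.389 to 0.061 when each library was left out. Of 295 genes taken by the rule, 225 kept direction and call in all alternatives, and 12 lost the call under limma voom and 2 under DESeq2. List counts of up to 5 moved by more than 1.5 times for many lists when a library was left out. Samples that share numbers 1 and 2 deviated together (correlation 0.197 and 0.245), a hint only, since 2 pairs do not establish a pairing; with the replicate block 3818 genes were called (1884 higher, 1934 lower), 22 named genes lost the call (among them Ankrd1, Ccl9, Fabp4, Gpx3, Lrg1, Lrrc15, Mt1, Mt2, Pprc1 and Ptprb), the glucocorticoid count that rose was 8, and the difference between times had 1953 calls, without that of Retnlg (adjusted p = 0.13). With 3 libraries a group, transcripts at a few counts had no measurable fold.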

Other observations

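Muscle ubiquitin adaptors of the ASB and KLHL families fell in 7 and rose in 3 of 13 tested (median -0.50; with library totals alone 4 fell and 3 rose). Klhl30 fell from 30.5, 23.2 and 26.1 CPM in V to 8.81, 10.7 and 10.6 CPM in DOX and Asb15 from 69.6, 61.2 and 55.5 CPM to 29, 24.5 and 30.7 CPM. Klhl40, which stabilises thin filament proteins in skeletal muscle, rose by 0.55 ± 0.13. Of 8 polyamine, urea cycle and arginine genes 3 rose and 3 fell, and with library totals alone 5 rose and none fell. Sat1, the acetyltransferase that starts polyamine breakdown, rose from 14.8, 20.8 and 17.3 CPM to 36.2, 46.1 and 36.5 CPM (1.17 ± 0.14), whereas Amd1, of polyamine synthesis, and Oaz1, the antizyme that degrades ornithine decarboxylase, changed by -0.55 ± 0.12 and -0.49 ± 0.091 and lost their calls with library totals alone (-0.13 and -0.066). Of 7 sterol synthesis genes 3 fell and none rose (median -0.29), whereas with library totals alone 3 rose and none fell (median 0.13). Hmgcs1 and Sc5d, at -0.50 ± 0.10 and -0.58 ± 0.13, lost their calls under that scaling (adjusted p = 0.46 and 0.30). Of 9 BCL2 family genes 4 rose and 1 fell, and of 9 cell cycle genes 2 rose and 2 fell (with library totals alone 6 rose and 2 fell). Cdkn1b, the inhibitor p27, rose by 0.39 ± 0.12, a call lost without library DOX 1, DOX 2 or V 3 (adjusted p = 0.052 to 0.086). Pf4, the only platelet marker tested, rose by 0.91 ± 0.29, a call lost without library DOX 2, DOX 4, V 1 or V 2 (adjusted p = 0.063 to 0.074).

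Other promoter letters were counted in RefSeq windows and are given as descriptions. An interferon element (GAAANNGAA on either strand) was in 6 of 12 windows of interferon-stimulated genes. It was in 8.6% of all windows and 6.9% of the windows of tested genes. A C/EBP-ATF element (TGATGNAAN on either strand) was in 17.6% of 17 windows of integrated stress response genes and 35.7% of 14 windows of cytosolic aminoacyl-tRNA synthetases. It was in 4.0% of all windows and 2.1% of the windows of tested genes. A nuclear respiratory factor element (GCATGCGC on either strand) was in 10.8% of 74 windows of mitochondrial ribosomal proteins and 10.6% of the 47 windows of those that fell. It was in 2.7% of all windows and 5.2% of the windows of tested genes. A STAT element (TTCNNNGAA, a palindrome) was in 11.8% of 17 windows of acute phase genes. It was in 8.3% of all windows and 6.3% of the windows of tested genes.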
